A study of Drosophila melanogaster with 6 samples.

Results

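Chromatin accessibility of wing imaginal discs that expressed *Cdk1-RNAi* was compared with that of discs that expressed *GFP*. The comparison holds the 2 libraries labelled Cdk1-RNAi and the 2 labelled GFP, that is 4 of the 6 libraries of the study, and they were chosen by their labels. All of them carried *tub-Gal4* and *tub-Gal80*, so that the transgene was driven in every cell by the ubiquitous tubulin driver and was held off by Gal80 at 17 °C for 7 days. The larvae were then moved to 31 °C for 2 days, when Gal80 no longer blocks Gal4, and the discs were dissected. Each library was made from a pool of discs, and libraries of 1 genotype are biological replicates per the study's methods. The GFP larvae had the same driver and the same temperature shift. The lists deposited for the libraries labelled Cdk1-RNAi carry *fzr* in their names, and those of the libraries labelled fzr carry Cdk. The labels set the genotypes below, and the counts with both names exchanged close the account.

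*Cdk1* encodes the cyclin-dependent kinase that brings cells from G2 into mitosis. Fly cells that lose its activity can stop before mitosis and in several tissues enter an endocycle, in which DNA is replicated again without division. *fzr* encodes the Cdh1-type activator of the anaphase-promoting complex, which destroys mitotic cyclins, and its expression also drives cells into endocycles. In ATAC-seq, a transposase inserts sequencing adapters into DNA that is not covered by nucleosomes, and places with many insertions are called as peaks. Active promoters and enhancers are the main source of peaks. The pericentric regions of fly chromosomes are packed in heterochromatin and consist largely of satellite DNA and transposable elements.

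The sequences that carry the main differences are shown first, read from the Release 6 reference (dm6) around the summit of the peak. The first pair lies in the heterochromatin of 3R next to the centromere, where peaks were lower in the Cdk1-RNAi libraries. The capitals mark the tandem unit CCCGTACTGGT. Tandem arrays of this unit are known as the dodeca satellite.
3R:140342-140542: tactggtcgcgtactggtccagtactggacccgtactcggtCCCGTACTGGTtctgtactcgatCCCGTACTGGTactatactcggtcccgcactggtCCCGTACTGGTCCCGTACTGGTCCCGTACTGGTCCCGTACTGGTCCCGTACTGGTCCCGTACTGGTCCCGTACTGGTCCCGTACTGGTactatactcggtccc
3R:173694-173894: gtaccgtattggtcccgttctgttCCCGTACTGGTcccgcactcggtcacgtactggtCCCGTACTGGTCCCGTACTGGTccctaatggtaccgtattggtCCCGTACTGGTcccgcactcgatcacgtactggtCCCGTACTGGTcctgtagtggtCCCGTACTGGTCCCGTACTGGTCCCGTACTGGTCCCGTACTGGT
The next sequence lies in a long intron of *Snap25* in the heterochromatin of 3L, at the largest drop on an arm, and holds none of the motifs searched.
3L:24175531-24175731: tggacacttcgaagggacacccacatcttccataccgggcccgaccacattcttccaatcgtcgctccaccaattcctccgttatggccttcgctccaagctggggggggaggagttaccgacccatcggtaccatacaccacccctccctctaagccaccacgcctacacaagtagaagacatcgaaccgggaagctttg
The last 3 were higher or were gained in the Cdk1-RNAi libraries, in an intron of *SNF4Agamma*, between genes with *PGRP-LA* as the nearest start, and at the promoter of *Hsp67Bc*. The capitals in the first mark GAGAG on either strand, the site of GAGA factor, and the other 2 hold none of the motifs searched.
3R:21204098-21204298: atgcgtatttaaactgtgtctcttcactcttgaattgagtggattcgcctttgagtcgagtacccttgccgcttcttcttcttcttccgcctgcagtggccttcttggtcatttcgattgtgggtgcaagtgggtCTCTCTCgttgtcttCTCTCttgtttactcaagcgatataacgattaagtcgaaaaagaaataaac
3L:9302078-9302278: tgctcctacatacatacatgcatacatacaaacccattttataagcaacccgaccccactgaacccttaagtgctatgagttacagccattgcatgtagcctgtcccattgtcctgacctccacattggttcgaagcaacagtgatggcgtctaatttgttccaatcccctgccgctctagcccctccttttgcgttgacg
3L:9372444-9372644: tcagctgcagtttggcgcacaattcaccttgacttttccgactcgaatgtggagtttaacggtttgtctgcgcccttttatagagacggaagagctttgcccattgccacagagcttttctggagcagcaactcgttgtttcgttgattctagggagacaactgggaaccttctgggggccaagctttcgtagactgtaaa

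Each library has its own list of peaks, with a fold enrichment of each peak over its local background. The lists held 36617 and 36100 peaks in the Cdk1-RNAi libraries and 36715 and 35404 in the GFP libraries. The read depth behind a value is unknown, since the lists hold no counts. Peaks of all 6 libraries were rarely inside exons. Only 2.52% to 2.94% of the bases under peaks on the 6 arms were exonic, whereas 26.8% of the arms is annotated as exon. Where a peak edge lay within an exon, it lay within 50 bp of the exon's border at 95.7% to 96.6% of edges in the 4 libraries compared. Exons, and with them the transcribed part of a promoter, were therefore hardly covered by peaks. Why exons were so rarely covered was not tested. The wing epithelium markers *nub*, *pdm2*, *salm*, *bi*, *wg*, *hth* and *rn* had a peak within 500 bp of a start in all 6 libraries, as did the 5 myoblast markers. In each library so did 3 or 4 of 4 trachea, 3 or 4 of 5 neuron, 3 of 6 hemocyte, 1 of 4 fat body and 1 of 4 muscle markers, and no germ line marker.

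The targeted gene could not serve as a check of the labels. *Cdk1* (FBgn0004106, 2L:10384739-10386262, minus strand) had at most 1 peak in a library, in the intron between exons 10385140-10385643 and 10386029-10386262. In fzr library 2 the peak also covered exon 10386029-10386262. The fold enrichment at *Cdk1* was 3.21 and 2.99 in the Cdk1-RNAi libraries, 4.35 in GFP library 2, and 4.19 and 4.50 in the fzr libraries. GFP library 1 had no peak there. A hairpin transgene holds exon sequence, which the peaks covered by at most 17 bases except in fzr library 2 (234 bases). At *fzr* (FBgn0262699, X:4667290-4679537), the peak just beyond its 3′ end was at 8.03 and 6.80 with *Cdk1-RNAi*, 10.2 and 6.44 with *GFP*, and 6.42 and 5.10 with *fzr*. The Cdk1-RNAi and GFP values overlapped, and both fzr values lay below them.

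To find where the genotypes differed, overlapping peaks of the 4 lists were merged into 45117 intervals. Of these, 26164 had a peak in all 4 libraries (shared), 1555 in both Cdk1-RNAi and neither GFP library (gained) and 1546 in both GFP and neither Cdk1-RNAi library (lost). Gained intervals were thus 3.45% and lost intervals 3.43% of the intervals, and these shares are the background for the counts that follow. With 2 libraries against 2, a count of this kind has no test. The other 15852 intervals had any other combination of peaks.

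Most gained and lost intervals were weak. Peaks were ranked by fold enrichment within their own list, from 0 to 100. The median percentile of gained intervals was 26.7 and 24.6 in the Cdk1-RNAi libraries, and that of lost intervals was 22.9 and 23.7 in the GFP libraries. Shared intervals had medians between 59.6 and 62.2. Both peaks were at or above the 50th percentile in 223 gained and 167 lost intervals. Of the intervals with a peak in both GFP libraries, 16.7% of those with a mean percentile below 25 and 0.905% of those above 75 were lost. For intervals with a peak in both Cdk1-RNAi libraries, 13.3% and 1.15% were gained. Gained intervals were also short, with a median length of 227 bp against 352 bp for lost and 496 bp for shared intervals.

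**Figure D1:**
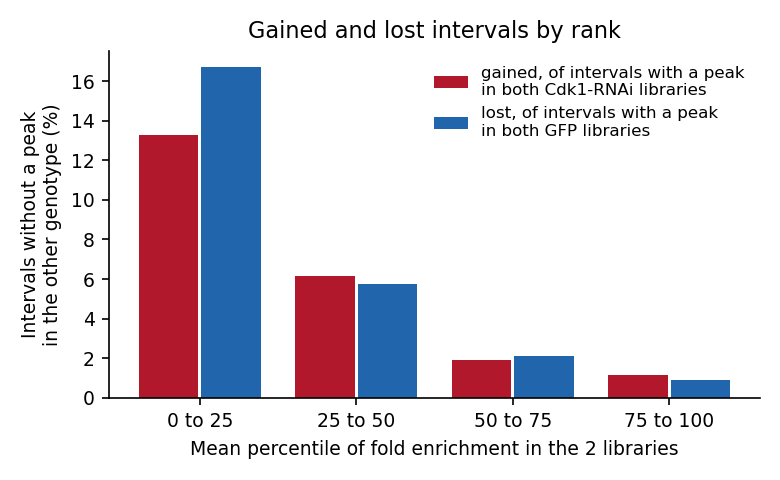
Share of intervals without a peak in the other genotype (y, in percent) by the mean percentile of fold enrichment in the 2 libraries that have a peak (x). The share falls from 13.3% and 16.7% below the 25th percentile to 1.15% and 0.905% above the 75th, so both kinds sit mainly among weak peaks.

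Peaks on unplaced and X-assigned scaffolds were fewer and lower in the Cdk1-RNAi libraries. These scaffolds are fragments that the assembly could not place on an arm, and they consist largely of heterochromatic repeats. The lists held 149 and 123 peaks on them with *Cdk1-RNAi* and 335 and 411 with *GFP*, so the groups did not overlap. Of their 440 intervals, 178 were lost (40.5%, against 3.43% of all intervals) and 3 were gained (0.682%, against 3.45%). The lost ones lay on 122 different scaffolds. On scaffolds assigned to X, 98 of 187 intervals were lost and 0 gained. The 2 fzr libraries had 240 and 383 scaffold peaks. Scaffolds assigned to Y are not in these counts and went the other way. Of their 29 intervals, 4 were gained (13.8%) and 1 was lost (3.45%), and their 3 shared intervals were all higher in both Cdk1-RNAi libraries. This did not hold for the Y as a whole. The Y and these scaffolds together had 5 gained (9.09%) and 11 lost (20%) among 55 intervals.

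Lost intervals also outnumbered gained ones beside the centromere of 3R. Its 4 Mb next to the centromere had 323 intervals, of which 82 were lost (25.4%) and 3 gained (0.929%). Its 57 shared intervals had a median log2 difference of -0.16, against 0.00 over all shared intervals. Of these 57, 13 (22.8%) were lower and 17 (29.8%) higher in both Cdk1-RNAi libraries than in both GFP libraries, before normalization. Over all shared intervals these shares were 4.75% and 51.8%. In the test of shared intervals given below, 4 of the 57 were called lower (7.02%, against 0.222% of all). The corresponding 4 Mb of 3L had 56 lost and 13 gained among 440 intervals, that of 2L 54 and 32 among 1146, and that of X 30 and 33 among 968. Beyond 8 Mb from the centromere end of these 4 arms, 2.49% of intervals were lost and 3.67% gained. The gene with the most lost intervals was *Myo81F*, a myosin gene that spans 1970 kb of this heterochromatin, with 37 lost and 0 gained among 108. *Pzl*, a Piezo-like channel gene next to it, had 14 lost and 0 gained among 38. *Snap25*, which encodes a synaptic membrane fusion protein, had 9 lost and 3 gained among 41, and *CG40006* near the centromere of 2L had 7 and 0 among 33. The window with the most lost intervals, 3R:200001-300000, had 9 lost among 13 and 0 gained. Of the next 4, each with 5 lost intervals, 3R:300001-400000 and 3R:2500001-2600000 also lie near *Myo81F* and had 8 intervals each. The others were X:21900001-22000000, near *CG40813*, with 7 intervals, and 3L:23400001-23500000, near *ND-MLRQ*, with 20.

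**Figure D2:**
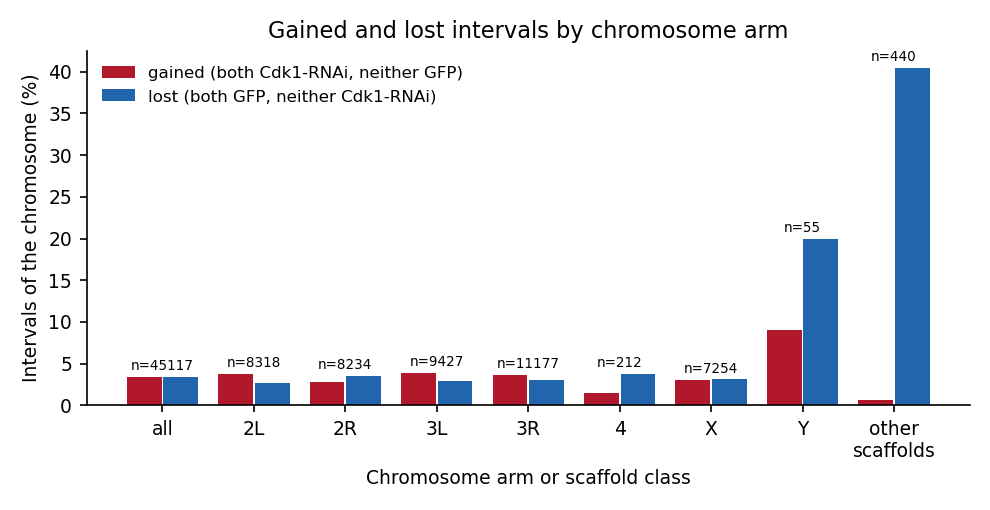
Percent of the intervals of each chromosome arm or scaffold class that were gained (red) or lost (blue), with the number of intervals (n) above each pair. Arms lie between 1.42% and 3.88%, while 40.5% of scaffold intervals were lost and 0.682% gained. The class Y includes scaffolds assigned to Y.

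The dodeca satellite of 3R was among the sequences with lost and lower intervals. At least 3 units of CCCGTACTGGT were found in the window around the summit, of the length printed above, in 20 of the 44622 intervals on the arms, and all 20 lay on 3R, whose sequence holds 6084 of the units against at most 5 on any other arm. Of these 20, 10 were lost, 0 were gained and 4 were shared, and they were singled out after their values were seen. The first Mb of 3R, in which all 20 lie, had 28 lost and 0 gained among 59 intervals, so the share lost at the satellite is close to that of its surroundings. At 3R:140185-140603, the fold enrichment was 2.52 and 2.29 with *Cdk1-RNAi* and 8.08 and 6.98 with *GFP*. At 3R:172655-174161 it was 3.52 and 3.19 against 6.29 and 5.87. In all 4 shared intervals both GFP values exceeded both Cdk1-RNAi values, which held for 4.75% of all shared intervals. The fzr libraries had 4.98 and 5.46 in the first interval and 4.90 and 5.41 in the second, between the other groups. Reads from copies of a repeat cannot be assigned to one copy, and the peaks of repeats depend on how such reads were treated. Fewer copies of a sequence and less accessibility per copy cannot be told apart in these data.

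Promoters were found among lost intervals less than among others. A summit lay within 500 bp of an annotated start in 242 gained intervals (15.6%, Wilson 95% interval 13.8% to 17.4%) and in 94 lost intervals (6.08%, 4.99% to 7.38%), intervals that cover counting error only. On the 6 arms alone, promoters made up 15.6% of gained, 6.93% of lost, 16.8% of shared and 15.2% of all intervals. Introns made up 49.8% of gained and 54.5% of lost, and intergenic sites 33.7% and 38.1%. Annotated transposable elements lay under 46 gained (2.97%) and 63 lost intervals (4.64%) on the arms, and under 2.42% of all. Without intervals that touch an exon, the promoter share of gained intervals was 5.86%, against 3.14% of lost, a setting added once the values were known.

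**Figure D3:**
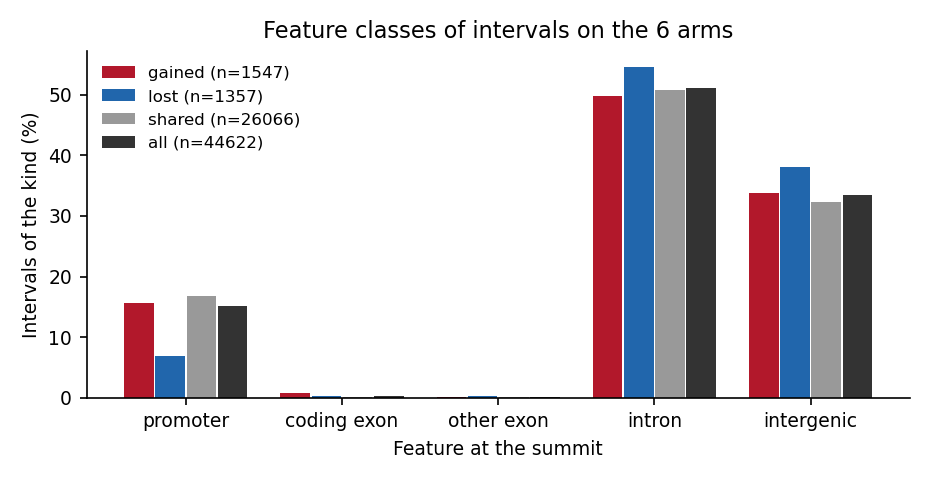
Share of gained, lost, shared and all intervals on the 6 arms (y, in percent) by the feature at the summit (x), with the number of intervals in the key. Promoters make up 6.93% of lost and 15.6% of gained intervals, and coding exons under 1% of each kind.

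The 10 strongest gained intervals on 2L, 3L, 3R, 4 and X were all promoters, 161 to 203 bp long. They lay at *MYPT-75D*, a targeting subunit of myosin phosphatase, *MED19*, a Mediator subunit, *rdgA*, a diacylglycerol kinase, *CG11537*, *cyst*, *lncRNA:roX1*, a noncoding RNA of dosage compensation, *tweek*, *dock*, an SH2 and SH3 adaptor, *CG10738* and *mbt*, a p21-activated kinase. At *MYPT-75D* (3L:18641257-18641430) the fold enrichment was 18.4 and 15.5 with *Cdk1-RNAi* and no peak was listed with *GFP*. At *lncRNA:roX1* (X:3862681-3862870) it was 13.1 and 15.3, again with no GFP peak. Such peaks are close to the shortest that a list holds, which is 161 and 160 bp in the Cdk1-RNAi lists and 169 and 166 bp in the GFP lists. Of the 10 intervals, 4 were shorter than 169 bp, and with peaks of at least 169 bp alone 5 of the 10 were still gained. All 10 touched an exon, so that 0 were left when such intervals were dropped, and 0 were left with peaks of at least 250 bp. All 10 had a peak in fzr library 1, whose shortest peak is 143 bp, and 1 had one in fzr library 2, whose shortest is 197 bp. The part of peak length in these gains cannot be told apart from that of genotype.

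The 10 strongest lost intervals were 180 to 707 bp long and 4 of them were promoters. The strongest lay in 3L heterochromatin (3L:25216791-25217497, nearest start *CR40354*), with 15.8 and 10.2 in the GFP libraries and no peak with *Cdk1-RNAi*. The promoter of *CG4970* (2L:11517062-11517352) had 11 and 10.5 with *GFP*, 12.6 and 9.00 with *fzr* and no peak with *Cdk1-RNAi*. An intron of *Myo81F* (3R:2448577-2449005) had 6.87 and 6.49 with *GFP*. Others were at or nearest to *tay*, *CG4702*, *CheB93b*, *CR14578*, *mgl*, a lipoprotein receptor, and *Epg5*, an autophagy gene, with GFP values between 4.57 and 9.92. With peaks of at least 169 bp alone all 10 were lost, with at least 250 bp 6 were, and without intervals that touch an exon 8 were.

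Some windows of 100 kb held many gained intervals. The window with the most, 3L:9200001-9300000, had 13 gained and 0 lost among 32 intervals. The starts nearest to its gained intervals were those of *CG4477*, *CG4483*, *GluRIB*, a glutamate receptor gene, *PGRP-LA* and *lncRNA:CR45408*. The next windows were 2L:17500001-17600000 with 9 gained and 0 lost among 33, near *Dhc36C* and *Sytalpha*, and 2L:17000001-17100000 with 8 and 1 among 47. In 3L:11700001-11800000, at *loaf* and *crim*, 7 of 37 were gained and 0 lost, and in 3R:29400001-29500000, at *Ptp99A*, 7 of 38 and 1. Of single genes, *Ptp99A*, a receptor tyrosine phosphatase, had 8 gained and 1 lost among 46, and *Rbp6*, a Musashi-family RNA-binding protein, had 8 and 2 among 84. *Octalpha2R*, an octopamine receptor, had 6 and 1 among 27, *loaf* 5 and 0 among 19, *DIP-alpha*, a cell surface immunoglobulin, 5 and 1 among 25, and *Pde6*, a phosphodiesterase, 4 and 0 among 15. *lncRNA:CR32773*, *bru3*, *CG42594* and *Fur1* completed the list of 10 with 5 or 6 gained each. On the lost side, *Ten-a*, a teneurin, had 8 lost and 4 gained among 105, and *kirre*, an immunoglobulin of myoblast fusion, 6 and 3 among 137. *CG42340*, *X11Lbeta*, *lovit* and *bbg* had 4 lost each. In all, 765 genes on these arms had a gained and 595 a lost interval over their span or 1 kb upstream, and 173 had both.

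The 26164 shared intervals allowed a test of the fold enrichment itself. Over them, log2 values correlated at 0.952 between the 2 Cdk1-RNAi libraries and at 0.871 between the 2 GFP libraries. Between libraries of different genotype the correlation was 0.864 to 0.891, so the 2 GFP libraries were no more alike than that. With limma on quantile-normalised log2 values and an adjusted p below 0.05, 10 intervals were higher (0.0382%) and 58 lower (0.222%) in the Cdk1-RNAi libraries. Scaffolds held 42 of the 58 lower intervals, on 39 different scaffolds, and 0 of the 10 higher ones, though they held only 93 of the shared intervals, Y-assigned scaffolds not counted. Their median fold enrichment was 4.28 and 3.54 with *Cdk1-RNAi* and 7.52 and 8.05 with *GFP*, and their median log2 difference was -1.13 against 0.00 over all shared intervals. For the 31 on X-assigned scaffolds it was -1.57, and 24 of them were called. Both Cdk1-RNAi values were below both GFP values in 72% of shared scaffold intervals and in 4.75% of all shared intervals. They were above both GFP values in 17.2% and in 51.8%, in fold enrichments before normalization. Leaving out 1 Cdk1-RNAi library left 0 higher and 0 or 2 lower intervals, and leaving out 1 GFP library gave 1249 or 1254 higher and 1030 or 1302 lower. Without Cdk1-RNAi library 1 or 2, the log2 difference of the *Snap25* interval described next was -2.56 or -2.00, against -2.31. That of the *SNF4Agamma* interval was 1.66 or 1.40, against 1.55. Both intervals were called from these same libraries. The 2 values of each lie around the full one nearly by construction, so they are no separate support. On 2L, 3L, 3R, 4 and X alone, 1 was called higher and 2 lower.

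**Figure D4:**
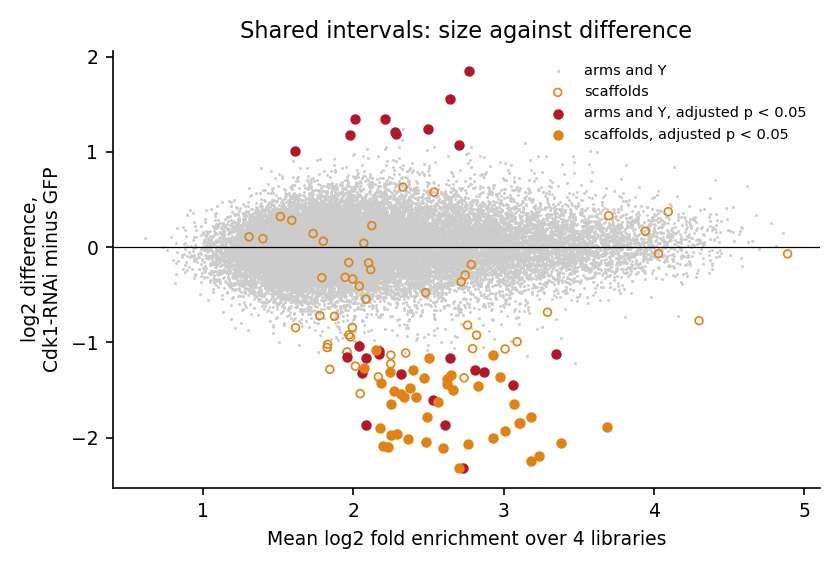
Difference in log2 fold enrichment between Cdk1-RNAi and GFP (y) against the mean log2 fold enrichment over the 4 libraries (x), 1 point per shared interval. Scaffold intervals (orange) lie mostly below 0, with a median of -1.13, and filled points passed an adjusted p of 0.05.

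Of the lower intervals on the arms, the largest drop lay in the *Snap25* intron (3L:24175094-24175857). Its fold enrichment was 4.20 and 2.57 with *Cdk1-RNAi* and 16.3 and 11 with *GFP*. The log2 difference was -2.31 (SE 0.22, limma adjusted p 0.0028). The dodeca interval 3R:140185-140603 followed with -1.87 (SE 0.17, limma adjusted p 0.00277). Lower values were also called at 3 further places within 200 kb of the centromere end of 3R, at 2 more in 3L heterochromatin, nearest to *CR14578* and *lncRNA:CR45177*, and near *CG40813* on X. An intron of *lncRNA:flam*, the flamenco piRNA cluster that silences transposons, had 2.98 and 3.19 with *Cdk1-RNAi* against 6.06 and 5.57, over an annotated transposable element. Near *fuss* on chromosome 4, a gene of the Ski and Sno family, the values were 5.12 and 4.93 against 10.8 and 8.81, also over an annotated transposable element. *CG9921* and *CG11106* on X were also lower, the latter over an annotated transposable element. The other 2 lay on 2R, nearest to *IntS3* (4.28 and 3.12 against 10.8 and 7.65) and at the promoter of *Roc2* (3.36 and 3.4 against 6.47 and 5.51). On the Y, 2 intervals were also called lower. Nearest to *Su(Ste):CR42412* the values were 3.59 and 3.47 against 10.8 and 10.3. Nearest to *Su(Ste):CR40820* they were 8.64 and 7.08 against 13.9 and 12.6. Of the 14 lower intervals on the 6 arms, 8 had windows whose 25-base stretches occurred in more than 1 copy in the genome at the median over the window, against 1.08% of shared and 2.17% of all intervals. Those at *Snap25* and *lncRNA:flam* were among these 8, with medians of 4 and 3 copies.

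Of the 9 higher intervals on the arms, 0 had such repeated windows. The largest rise was in an intron of *SNF4Agamma*, the gamma subunit of AMP-activated kinase (3R:21203838-21204455). Its fold enrichment was 11 and 12.8 with *Cdk1-RNAi* and 3.56 and 3.06 with *GFP*, and the log2 difference was 1.55 (SE 0.17, limma adjusted p 0.00637). The interval 3L:9301774-9302451, whose nearest start is that of *PGRP-LA*, a peptidoglycan recognition protein gene, at 32154 bp, had 8.79 and 7.37 against 2.75 and 2.57. It adjoins the window richest in gained intervals. Introns of *unc-13-4A* (7.57 and 6.39 against 2.34 and 2.33), of *dpr6*, an immunoglobulin gene (10.5 and 8.75 against 3.31 and 3.31), and of *beat-IIIa* (6.34 and 6.46 against 2.59 and 2.26) were also higher. *CG4962* was the only promoter, with 8.40 and 7.79 against 2.74 and 3.08, and only just passed the threshold (limma adjusted p 0.0498). The others lay near *lncRNA:CR43452*, *CG43149* and *lncRNA:CR45374* (limma adjusted p 0.0325, 0.0479 and 0.0475), and 1 lay on a Y-assigned scaffold. The last had 18.7 and 11.2 against 3.15 and 3.31, and its log2 difference of 1.85 was the largest rise of all. In each called higher interval, both Cdk1-RNAi values exceeded both GFP values. The intervals were selected on these values, and the same held for 51.8% of all shared intervals before normalization.

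**Figure D5:**
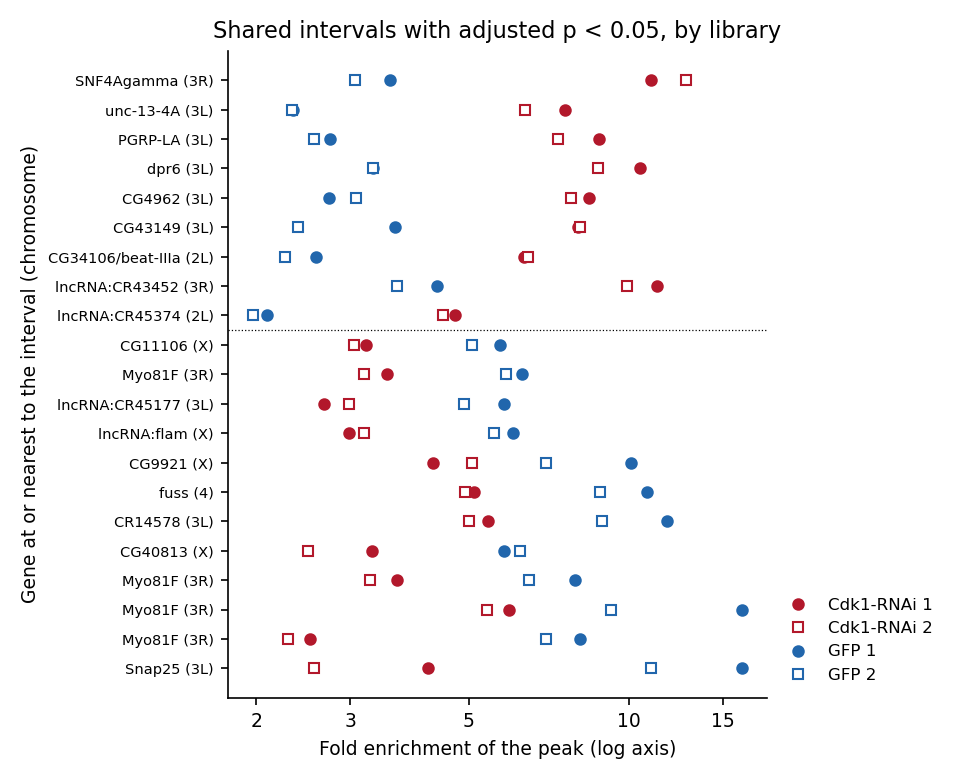
Fold enrichment (x, log axis) of each shared interval on 2L, 3L, 3R, 4 and X that passed an adjusted p of 0.05, by library (red, Cdk1-RNAi; blue, GFP; circles, library 1; open squares, library 2), named by the gene at or nearest to it. Intervals above the dotted line were higher and those below were lower with Cdk1-RNAi. The colours do not overlap in any row, which the selection on these values largely fixes.

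Genes of the cell cycle and of the stress pathways were examined next, since *Cdk1* acts in mitosis. None of the 40 intervals over the 36 genes of mitotic entry and exit was gained or lost, and their 26 shared intervals had a median log2 difference of -0.06 and no call. The same held for the 47 intervals over 26 genes of G1/S, endocycle and replication (median -0.03) and for the 22 over 20 genes of the DNA damage response (median -0.11). Of 37 intervals over 16 apoptosis genes, 1 was gained, over *Diap1* at the start of *lncRNA:CR43951* (2.94 and 3.21), and 0 were lost. Of the 26 shared ones 1 was lower, the promoter of *Roc2* on 2R, which is also within 500 bp of a start of *Buffy*, a Bcl-2 family gene (log2 difference -1.09, SE 0.16, limma adjusted p 0.0349). Over 16 genes of the JNK pathway, 2 of 73 intervals were gained and 3 lost. An intron of *puc*, the JNK phosphatase, had 3.64 and 3.18 with *GFP* and no peak with *Cdk1-RNAi*. Over 11 JAK/STAT genes, 1 of 93 was gained, at the start of *et*, a short receptor that dampens the pathway (3.44 and 2.43), and 3 were lost, all over *Ptp61F*. The gained and lost shares of these lists lie between 0% and 4.11%, against the background of 3.45% and 3.43%.

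Among developmental genes, the share of gained intervals was below the background except over the Hox genes. The strongest gained intervals, at *pb*, *H*, *Hr4* and *mamo*, were only 172 to 200 bp long. Each of these had a peak in fzr library 1 and none in fzr library 2. The part of peak length in them cannot be told apart from that of genotype. Of 474 intervals over 46 wing patterning genes, 8 were gained and 9 lost, below the background in each direction, and none of the 318 shared intervals was called. Of 134 intervals over the Hox genes, 7 were gained (5.22%, against 3.45% of all) and 4 lost (2.99%, against 3.43%). The strongest gained one was in an intron of *pb* (3R:6708962-6709133), at 11.9 and 12.7 with *Cdk1-RNAi*, 15.3 in fzr library 1 and no peak in the other libraries. *Antp* had 3 gained intronic intervals and 1 lost. Near starts of *Abd-B*, 2 weak intervals were gained, at 2.41 and 2.24 and at 2.06 and 2.45. Of 54 intervals over Notch pathway and proneural genes, 1 was gained (1.85%) and 3 were lost (5.56%, above the background). The promoter of *H*, which encodes the Notch corepressor Hairless, had 11.9 and 12.5 (3R:20621814-20621985). The interval is 172 bp long. At *E(spl)mgamma-HLH*, a Notch target, a weak promoter interval was lost (1.77 and 1.72 with *GFP*). Over the Hippo and Fat pathway genes, 3 of 145 intervals were gained and 2 lost. Near a start of *app*, a palmitoyltransferase of the Fat pathway, an intronic interval was gained (3.52 and 2.78), and *app* also had another gained and 1 lost interval over its span. Over the ecdysone response genes, 6 of 319 were gained and 5 lost, both below the background. The promoter of *Hr4*, an ecdysone-response nuclear receptor, had 9.06 and 7.35, and an intron of *mamo*, in the ecdysone list, had 10.2 and 10. Both genes also had 1 lost interval each, at 1.83 and 1.88 and at 2.67 and 2.75 with *GFP*. The heat shock genes had 1 gained interval among 14 (7.14%, above the background but a single interval) and 0 lost. It lies within 500 bp of starts of *Hsp22* and *Hsp67Bc*, small heat shock protein genes, and of *CG4456* (3L:9372487-9372706), with 7.26 and 7.91 with *Cdk1-RNAi* and no peak in the GFP or fzr libraries. At 220 bp it is longer than the shortest peak of every list. Of 8291 genes with an interval within 500 bp of a start, 3.88% had a gained and 1.93% a lost interval there.

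Markers of other cell types that a disc preparation could hold were counted in the same way. Gained and lost intervals numbered 4 and 8 of 167 over the myoblast genes, of which 3 and 6 lay over *kirre*, 1 and 2 of 29 over the hemocyte genes, 2 and 2 of 42 over the neuron genes and 0 over the trachea, fat body, muscle and germ line genes. The neuron marker *cpx* had a gained promoter interval (4.29 and 3.62).

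Sequence features were counted in the window around each summit. The median G+C was 48.8% in both gained and lost intervals on the arms, 50.2% in shared and 49.3% in all. GAGAG, the site of GAGA factor, was found on either strand in 25.1% of gained, 26.9% of lost and 28.0% of all windows. The AP-1 motif TGANTCA was found in 4.91%, 3.68% and 4.18%, the Scalloped motif CATTCC in 12.0%, 11.7% and 12.2%, and the Stat92E motif TTCNNNGAA in 4.01%, 4.05% and 3.81%. The Grainy head motif AACCGGTT was found in 0.129% of gained (2 windows), 0.442% of lost (6), 0.978% of shared and 0.708% of all windows. TATCGATA (DREF), CAGGTAG (Zelda) and GGTCACACT (M1BP) were each in under 2% of gained, lost, shared and all windows. At promoters, the median G+C was 43.8% in the 94 lost, 48.8% in the 242 gained and 49.8% in shared intervals. The AP-1 motif was in 11.7% of lost (11 windows), 2.89% of gained (7) and 5.09% of shared promoter windows. This was not particular to AP-1. The Stat92E motif was in 9.57% of lost (9 windows), 5.37% of gained and 4.43% of shared promoter windows. TATCGATA was in 7.45% (7 windows), 2.89% and 3.15%. GAGAG went the other way, with 28.7%, 41.3% and 40.8%. Windows in more than 1 genomic copy by the median above made up 9.43% of lost and 2.59% of gained intervals. These shares are descriptions, and a match is not a bound site.

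With the names exchanged, so that the libraries labelled fzr stand for *Cdk1-RNAi*, the counts were different. Of 43417 intervals, 490 were gained (1.13%) and 2787 lost (6.42%), and fzr library 2 has the shortest list, 27119 peaks. On scaffolds, 49 of 508 intervals were lost (9.65%) and 16 gained (3.15%). In the 4 Mb of 3R next to the centromere, 21 of 441 were lost and 8 gained. Promoters made up 18.4% of gained and 6.06% of lost intervals, and 2 intervals were gained in 3L:9200001-9300000. The X had 9.18% of its intervals lost, against 5.34% to 6.33% on 2L, 2R, 3L and 3R. No shared interval passed limma's adjusted p of 0.05 among 20082, with 771 higher and 737 lower at an unadjusted p below 0.05. Some differences were of similar size all the same, though the GFP libraries are shared by both comparisons. The log2 difference was 1.40 at *PGRP-LA*, 1.32 at *beat-IIIa*, 1.47 at *dpr6*, 0.55 at *SNF4Agamma* and -1.62 at *Snap25*, against 1.35, 1.18, 1.24, 1.55 and -2.31 with the labels as given. The median over the 154 shared scaffold intervals was -0.37. At an unadjusted p below 0.05, the labels as given had 1607 higher and 1528 lower.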

How the data were processed

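Peak lists of the 2 Cdk1-RNAi and 2 GFP libraries were used, and those of the 2 fzr libraries for the exchanged names. With nf-core/atacseq, the authors mapped the reads by BWA-MEM (dm6), filtered out blacklisted regions and ran MACS2 on each library. The fold enrichment deposited by the authors is MACS2's ratio of a peak's pileup to its local background. The deposited −log10 p and −log10 q are MACS2's values, and the deposited score of each peak is a whole number that follows its −log10 q. The authors' DESeq2 counts were not used here, so depth is unknown.

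Peaks overlapping by at least 1 bp were merged. The highest fold enrichment of a list stood for an interval. Shared intervals were fitted with limma 3.58.1 in R 4.3.3 (quantile-normalised log2 values, no pseudocount, trend, Benjamini-Hochberg, two-sided, threshold 0.05), which was tested on simulated data. Gene positions came from the BDGP6.54 annotation of the same assembly. Scaffolds had no annotation here, and their sequences were not used. Promoters are within 500 bp of a start. Genes and intervals were named by rule: the 10 strongest gained and lost intervals, the 10 genes and 5 windows of 100 kb with the most, the 10 largest called changes each way and list members with a change. Rows beyond the rule were chosen after their values were seen, namely the dodeca intervals, *pb*, *mamo*, *puc*, *Antp*, the distances from the centromere and the called intervals past the 10th. Of the lost intervals that the rule names, 1 is not reported here. Members and lists were chosen with earlier results of these data known.

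Alternatives were a minimum −log10 q of 5, equal list lengths, an overlap share of 0.5, peak lengths of at least 169 bp, the arms alone, 1000 bp promoters, other normalizations, exchanged labels, a replicate block and leaving out each library. A minimum of 250 bp and leaving out intervals at exons were added after seeing the data. Python 3.11.15, NumPy 2.4.6, pandas 2.3.3, SciPy 1.17.1 and Matplotlib 3.10.9 were used.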

Additional observations from a re-analysis of the deposited data

How the results depend on the processing

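Gained and lost intervals numbered 490 and 2787 with the labels exchanged, and 911 were gained with peaks of at least 250 bp, against 1555 and 1546. Under the other settings that kept all 4 libraries, both counts stayed within 1.5 times. Leaving out 1 library gave 2715 to 3868 gained and 2476 to 4450 lost, since 1 list fewer has to hold or lack the peak. Lost intervals on scaffolds numbered 178. They numbered 49 with the labels exchanged and ranged from 181 to 287 without 1 library. In the 4 Mb of 3R next to the centromere, 42 were lost at a minimum −log10 q of 5, 21 with the labels exchanged and 87 to 182 without 1 library, against 82. The promoter share of gained intervals was 21.7% within 1000 bp of a start, 13.5% with peaks of at least 250 bp, 5.86% without intervals at exons, 18.4% with the labels exchanged and 13.3% to 17.7% without 1 library. That of lost intervals was 12.6% within 1000 bp, 3.14% without intervals at exons and 6.62% to 10.2% without 1 library. Of shared intervals, 38 were higher after median centring alone, 6 with −log10 p, 6 at a minimum −log10 q of 5 and 32 without intervals at exons, against 10. Percentiles within a list gave 0 higher and 0 lower, labels exchanged gave 0 and 0, and 2L, 3L, 3R, 4 and X alone gave 1 and 2. Leaving out 1 library gave 0 to 1254 higher and 0 to 1302 lower. With Cdk1-RNAi library 1 left out there were 0 and 2, with library 2 left out 0 and 0, and the lone library is then assumed to vary like the other genotype. A replicate block gave 432 higher and 458 lower, and all 68 calls were still made. The deviations of same-numbered libraries correlated at 0.169, over only 2 pairs, so the numbers were not taken to pair the libraries. The cause of these changes was not tested. Depth is unknown, so an interval without a peak is below the peak caller's threshold, not closed.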
